A study of Rattus norvegicus with 105 samples.

Results

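Cobalt and nickel were compared directly with each other in rat leg muscle after 3 months of implantation. The comparison took the 3 cobalt arrays and the 3 nickel arrays of that month, 6 of the 105 arrays of the series, and all 22954 probe sets other than controls. They were chosen by metal and month from the sample titles, without use of any measured value. The tissue was the gastrocnemius of male Sprague-Dawley rats, bought at about 30 d of age and acclimated for at least 2 weeks before surgery, so that all animals of this month had carried pellets for 3 months. Each rat carried 4 pellets of its metal, 2 in each hind limb, every pellet a cylinder 1 mm across and 2 mm long. Rats with tantalum pellets were the implanted sham control, which shares the surgery and the foreign body with both metals, and every metal had 8 rats for each month. Each Clariom S Rat array received 250 ng of RNA pooled from 2 to 3 animals, so the 3 arrays of a group are replicates of pools.

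Cobalt and nickel are known contact sensitizers, and ions of either can stabilize hypoxia-inducible factor (HIF), a transcription factor that cells otherwise degrade when oxygen is present. Metal ions and cell damage can induce metallothioneins, small cysteine-rich proteins that bind zinc and other metals, and heme oxygenase. T cells and natural killer (NK) cells enter inflamed tissue by following chemokines such as CXCL9, CXCL10 and CXCL11, which bind the receptor CXCR3 and are induced by interferon gamma. Damaged muscle is rebuilt from satellite cells, whose young fibres transiently make embryonic and fetal contractile proteins, while fibroblasts lay down matrix.

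All values are log2 intensities and all differences are cobalt minus nickel on the log2 scale, given with the standard error (SE) of the linear model. A probe set passed where limma's adjusted p was below 0.05. The medians of the 6 arrays lay between 6.48 and 6.52, and between 90.2% and 93.0% of the probe sets of an array lay above the median of its control probe sets, which was 3.91 to 4.09. Where an array of the lower group lay at or below its control median, the measured difference is given with a lower bound, written "at least N-fold", which sets such arrays at their control median. Muscle fibre markers were alike in all groups. Acta1, the actin of skeletal muscle, averaged 14.05 ± 0.01 with cobalt, 14.01 ± 0.09 with nickel and 14.08 ± 0.03 with tantalum (SD, n = 3 each). Nickel replicate 3 lay nearer to tantalum than the other nickel arrays did. Its correlation over probe sets with the tantalum arrays was 0.986 to 0.987, against 0.980 to 0.982 for nickel replicates 1 and 2, while all nickel arrays correlated with each other at 0.989 to 0.990.

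Most genes that differed between the metals were higher with cobalt. Genes of T cells, NK cells, B cells, CXCR3 chemokines and the interferon gamma response led that side. Contractile genes of developing muscle, the metallothioneins Mt1 and Mt2A, the Wnt antagonist Sfrp2 and matrix proteins led the nickel side. Of the 22954 probe sets, 504 passed (2.2%), of which 387 were higher with cobalt (1.69% of all tested) and 117 higher with nickel (0.51%). The difference was at least 2-fold for 151 of those higher with cobalt (0.658%) and for 41 of those higher with nickel (0.179%). At an unadjusted p below 0.05, 2032 probe sets passed (8.85%). Gene symbols were at hand for 349 of the 504, and 288 of these genes were higher with cobalt and 61 higher with nickel. The 3 cobalt arrays lay wholly on the same side of the 3 nickel arrays for 486 of the 504. Over all probe sets tested, cobalt lay wholly above nickel for 8.5% and wholly below it for 8.52%, the median difference was -0.01 and the 95% interval of the difference lay within 2-fold either way for 97.2%. Leaving out each array in turn gave 376 to 407 calls. Against tantalum, which both comparisons share, 1254 probe sets passed with cobalt (5.46%) and 784 with nickel (3.42%). With 1 array left out the cobalt count lay between 874 and 1141. The nickel count moved both ways. It was 419, 438 and 935 without nickel replicate 1, 2 and 3, and 553, 619 and 485 without tantalum replicate 1, 2 and 3. Of all probe sets, 4.87% were called higher than tantalum with cobalt and 2.82% with nickel. These shares, and those of 1.69% and 0.51% between the metals, are the background of the list counts that follow. Some genes in the lists were picked with earlier results of these data known. In whole-tissue RNA, fewer cells of a type and less RNA per cell cannot be told apart, for any of the cell markers that follow.

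**Figure D1:**
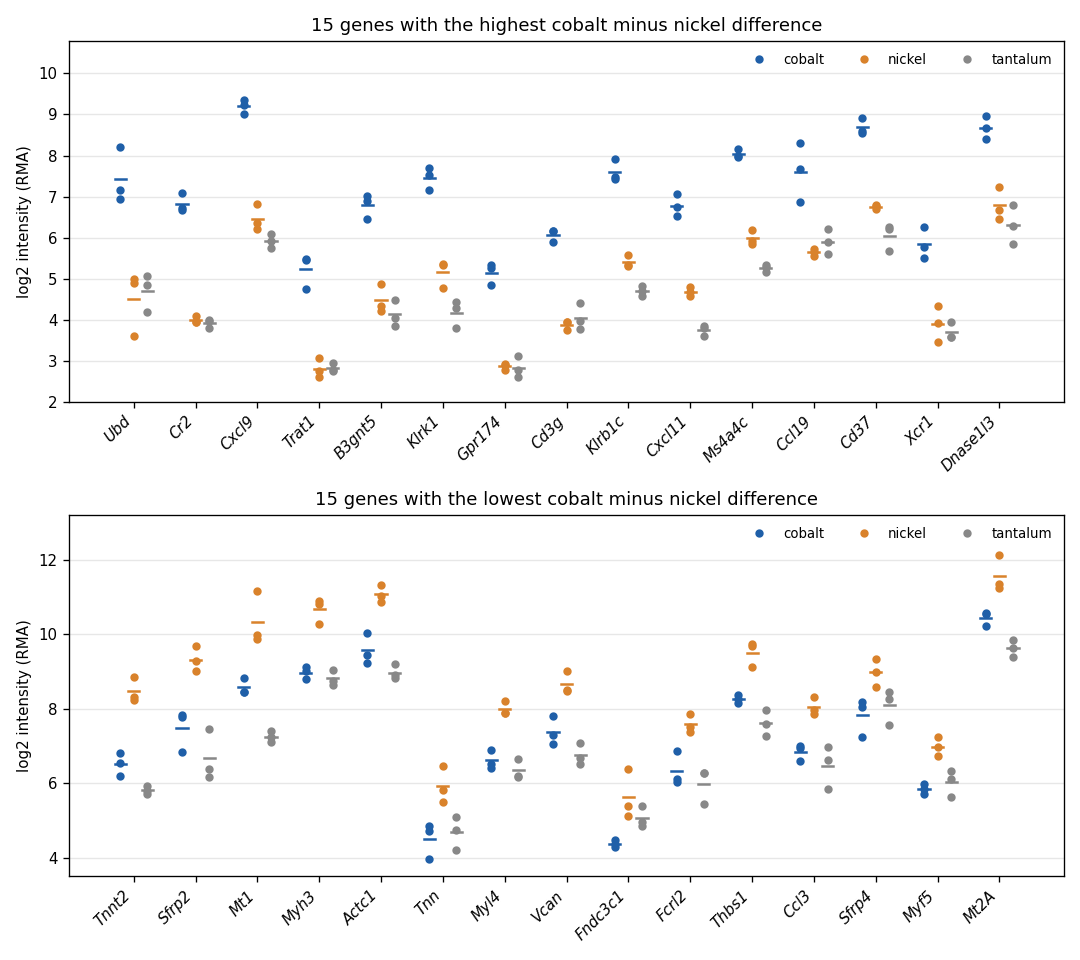
Log2 intensity (vertical axis) of the 15 genes with the highest and the 15 with the lowest cobalt minus nickel difference among those that passed with separate groups, at 3 months. Points are arrays (3 each of cobalt, nickel and tantalum) and bars are group means. Because the genes were chosen for this separation, the plot shows the size and spread of the differences and where tantalum lies, which is below nickel for Mt1 and beside nickel for Cr2.

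The CXCR3 chemokines were among the strongest differences. Cxcl9, a CXCR3 ligand induced by interferon gamma, read 9.36, 9.02 and 9.22 with cobalt, 6.20, 6.81 and 6.35 with nickel and 5.74, 5.91 and 6.08 with tantalum. The lowest cobalt array thus lay above the highest nickel array by a wide margin, and nickel lay near tantalum. The difference was 2.75 ± 0.24, or 6.71-fold (adjusted p = 1.19e-14). Cxcl11, another ligand of the same receptor, read 6.75, 6.52 and 7.07 with cobalt, 4.79, 4.66 and 4.58 with nickel and 3.86, 3.59 and 3.81 with tantalum, a difference of 2.10 ± 0.20 (adjusted p = 2.02e-13). Here nickel also lay above tantalum, by 0.93 (adjusted p = 0.00119). The receptor gene Cxcr3 differed by 1.49 ± 0.26 (adjusted p = 4.1e-05). Cxcl10, the remaining ligand, read 7.31, 6.91 and 6.77 with cobalt and 6.38, 6.26 and 6.83 with nickel. These groups overlapped, and its difference of 0.51 ± 0.17 did not pass (adjusted p = 0.145), although it passed without nickel replicate 3 (0.68, adjusted p = 0.0427) and with array weights (adjusted p = 0.0134). Cobalt passed against tantalum by 1.07 (adjusted p = 2.36e-06). So 3 of the 4 genes of this axis were higher with cobalt and the list's median was 1.80, against 1.69% of all probe sets called higher and a median of -0.01.

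Among 12 other chemokines and receptors of T and NK cells, 3 were higher with cobalt and none with nickel. Xcr1, the receptor of the chemokine XCL1 on cross-presenting dendritic cells, differed by 1.94 ± 0.25 as measured, or at least 3.38-fold (adjusted p = 1.31e-08). Ccl5, a chemokine made by activated T cells, read 8.82, 7.08 and 8.39 with cobalt and 6.35, 6.13 and 6.46 with nickel. Cobalt replicate 2 was the lowest of its group and still above every nickel array. The difference of 1.78 ± 0.20 passed (adjusted p = 1.88e-10), but not in a fit to the 6 arrays alone (adjusted p = 0.0546). Ccr6 differed by 1.08 ± 0.18 (adjusted p = 7.67e-06).

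T cell genes made the largest group. Of 22 measured genes of the T cell receptor complex and T cell surface, 16 were higher with cobalt and none with nickel. The 6 others, Cd4, Cd5, Cd6, Cd7, Icos and Lat, did not pass. Of all probe sets, 1.69% were called higher with cobalt. The list's median difference was 0.89. Cd3g, a chain of the CD3 complex that signals for the T cell receptor, read 5.90, 6.16 and 6.16 with cobalt, 3.93, 3.94 and 3.74 with nickel and 4.41, 3.77 and 3.96 with tantalum. Nickel and tantalum overlapped near the level of the control probe sets, and cobalt stood above both. The measured difference was 2.21 ± 0.23, or at least 4.20-fold, since 2 nickel arrays lay at or below their control median (adjusted p = 4.78e-12). Trat1, an adaptor that stabilizes the same receptor, had nickel arrays at 2.74, 2.61 and 3.06, all below the control median. Cobalt was at least 2.35-fold higher (measured difference 2.42 ± 0.21, adjusted p = 4.04e-15). Cd2, an adhesion molecule of T and NK cells, differed by 1.77 ± 0.15 (adjusted p = 2.02e-15), and Sh2d1a, the signalling adaptor SAP, by 1.74 ± 0.20 as measured, or at least 3.27-fold (adjusted p = 5.37e-10).

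The T cell genes that passed covered several functions. Cd8a and Cd8b, the chains of the co-receptor of cytotoxic T cells, were higher with cobalt by 1.25 and 1.37 (adjusted p = 3.03e-07 and 8.44e-08). Ctla4, an inhibitory receptor of activated and regulatory T cells, was higher by 1.47, with cobalt at 6.10, 6.23 and 6.10 and nickel at 4.69, 4.70 and 4.64 (adjusted p = 1.85e-05). Foxp3, the transcription factor of regulatory T cells, differed less, by 0.70 (adjusted p = 0.00143). Set against tantalum, all 22 list genes passed as higher with cobalt and 4 passed with nickel, where 4.87% and 2.82% of all probe sets were called higher. Il7r, the receptor of a T cell survival cytokine, was above tantalum in both metals and still higher with cobalt than with nickel, by 1.08 ± 0.25 (adjusted p = 0.00443), but not without cobalt replicate 3 (0.91, adjusted p = 0.0911).

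NK receptors followed the same order. Of 22 measured NK receptors and cytotoxic granule genes, 10 were higher with cobalt and none with nickel, with a median of 0.45. Of all probe sets, 1.69% were called higher with cobalt. Leaving out the dimmest 30% of probe sets removed many of these genes from the test. Of 2 NK genes still tested none passed, of 11 T cell genes 6 did and of 6 B cell genes 1 did. Klrk1, the activating receptor NKG2D, read 7.52, 7.16 and 7.70 with cobalt, 4.78, 5.33 and 5.36 with nickel and 4.42, 3.79 and 4.30 with tantalum. The 3 groups did not overlap, with nickel between the others. Cobalt exceeded nickel by 2.30 ± 0.23, or 4.94-fold (adjusted p = 1.54e-12), and nickel exceeded tantalum by 0.99 (adjusted p = 0.00328). Klrb1c, a lectin-like NK receptor, differed by 2.20 ± 0.19 (adjusted p = 5.74e-15), Klrc3 by 1.84 ± 0.19 (adjusted p = 1.88e-11) and Klrd1, the CD94 chain that pairs with such receptors, by 1.75 ± 0.21 (adjusted p = 1.89e-09). Of the granule genes, Prf1, which encodes perforin, read 6.64, 6.10 and 6.36 with cobalt and 5.46, 5.27 and 5.06 with nickel, a difference of 1.10 (adjusted p = 4.12e-06). Ctsw, a cathepsin of cytotoxic cells, was higher by 1.68 ± 0.20 (adjusted p = 2e-09) and Nkg7, a granule membrane protein, by 1.37 (adjusted p = 2.46e-09). Ncr1, a receptor that marks NK cells more narrowly, differed by 0.31 and did not pass (adjusted p = 0.617). The granule genes Gzma, Gzmb and Gzmm were measured and did not pass, and nor did Faslg, Tbx21 and Ifng.

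B cell genes were also higher with cobalt, 7 of 14 measured against 1.69% of all probe sets, with none higher with nickel and a median of 0.68. Cr2, the complement receptor of B cells and follicular dendritic cells, read 7.08, 6.72 and 6.67 with cobalt, 3.94, 3.94 and 4.08 with nickel and 3.99, 3.96 and 3.81 with tantalum. Nickel and tantalum sat together near the control probe sets. The measured difference of 2.84 ± 0.17, or at least 7.03-fold, passed (adjusted p = 6.73e-23). Bank1, a B cell scaffold protein, differed by 1.71 ± 0.18 (adjusted p = 7.22e-12). Cd79b, a chain of the B cell receptor, differed by 1.57 ± 0.20 (adjusted p = 4.49e-09), and Cd22, an inhibitory receptor of B cells, by 1.06 ± 0.15 (adjusted p = 2.72e-07).

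Of 12 genes of lymphoid homing and lymphoid tissue, 5 were higher with cobalt and none with nickel. The count fell to 3 without cobalt replicate 3 or without nickel replicate 3. Ccl19, the chemokine that draws cells bearing CCR7, read 8.29, 7.66 and 6.86 with cobalt, 5.66, 5.56 and 5.72 with nickel and 5.89, 6.20 and 5.60 with tantalum. The cobalt arrays spread widely, and all lay above both other groups. The difference was 1.96 ± 0.21 (adjusted p = 2.38e-11). Cxcr5, the receptor that guides B cells to follicles, differed by 1.05 ± 0.22 (adjusted p = 0.000921) and Ccr7 by 0.64 ± 0.16 (adjusted p = 0.0126). Cxcl13, the ligand of CXCR5, read 12.06, 11.24 and 11.79 with cobalt, 9.86, 10.30 and 9.32 with nickel and 8.19, 9.80 and 5.64 with tantalum. The cobalt and nickel arrays did not overlap, but with this gene's spread over the series the difference of 1.87 ± 0.67 did not pass (adjusted p = 0.183). It passed in a fit to the 6 arrays alone (adjusted p = 0.00993).

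Lymph node and lymphoid stroma had 5 markers. Ccl19 passed, Cxcl13 and Ccl21 had separate groups but did not pass, and Glycam1 and Madcam1 overlapped and did not pass. Glycam1, a ligand made by lymph node venules, lay between 5.35 and 5.82 over the 6 arrays and differed by -0.09. Madcam1, an addressin of lymphoid vessels, lay between 5.68 and 5.92 and also differed by -0.09. Ccl21 differed by 0.55 and did not pass (adjusted p = 0.351).

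Genes of the interferon gamma response rose with cobalt in the same arrays. Of 11 measured GTPases and factors, 6 were higher with cobalt and none with nickel, with a median of 0.88. Ifng, the gene of interferon gamma, did not pass. Gbp2, a guanylate-binding GTPase of cell-autonomous defence, read 9.10, 9.18 and 9.68 with cobalt, 8.30, 8.26 and 7.92 with nickel and 7.21, 7.30 and 7.45 with tantalum. The 3 groups did not overlap, with nickel in the middle. Cobalt exceeded nickel by 1.16 ± 0.15 (adjusted p = 4.49e-09) and nickel exceeded tantalum by 0.84 (adjusted p = 3.15e-05). Ifi47, an immunity-related GTPase, differed by 1.37 ± 0.20 (adjusted p = 3.97e-07), Gbp5 by 1.15 ± 0.19 (adjusted p = 1.24e-05) and Igtp by 0.88 ± 0.17 (adjusted p = 0.00019). Irf1, the transcription factor, was higher by 0.94 (adjusted p = 0.00113) and Ido1, a tryptophan-degrading enzyme, by 0.77 (adjusted p = 0.00335), though not without cobalt replicate 1 (0.47, adjusted p = 0.328). Ubd, a ubiquitin-like protein induced by interferon gamma, had the largest difference of all named genes. It read 6.93, 8.20 and 7.16 with cobalt, 4.89, 5.00 and 3.60 with nickel and 5.06, 4.20 and 4.86 with tantalum, so that nickel overlapped tantalum while cobalt stood apart. The measured difference was 2.93 ± 0.39, or at least 6.85-fold (adjusted p = 3.29e-08).

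The bases just before the start sites of Gbp2 and Gbp5 are shown because both genes are known targets of interferon-activated factors and stood higher with cobalt. Each is the 250 bases before the start, 5′ to 3′ on the gene's strand, from RefSeq for the assembly GRCr8, at chr2:234005477-234005726 (plus strand) for Gbp2 and chr2:233910749-233910998 (plus strand) for Gbp5. Capitals mark the letters TTTC, then any 2 bases, then TTTC again, a form of the interferon-stimulated response element, searched on both strands.
Gbp2: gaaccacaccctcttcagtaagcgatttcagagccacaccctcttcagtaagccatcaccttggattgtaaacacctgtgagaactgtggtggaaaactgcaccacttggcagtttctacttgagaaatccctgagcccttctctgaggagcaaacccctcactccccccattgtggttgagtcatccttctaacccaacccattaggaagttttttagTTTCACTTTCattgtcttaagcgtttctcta
Gbp5: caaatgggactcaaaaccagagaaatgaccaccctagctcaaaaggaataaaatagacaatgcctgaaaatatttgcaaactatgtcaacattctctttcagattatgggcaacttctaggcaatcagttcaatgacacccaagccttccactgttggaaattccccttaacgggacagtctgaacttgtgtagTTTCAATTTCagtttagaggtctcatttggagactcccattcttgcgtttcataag
Each holds 1 match, which overlapped no match of the other motifs searched. The letters occur in 3.41% of all 33469 promoter windows of this length. Of the 6 interferon gamma genes that passed, 5 had a window, and 3 of these held the element: Gbp2, Gbp5 and Igtp. The gamma-activated site, TTCNNNGAA with N for any base, was also searched. It was held by 3 of the 5, Ifi47, Igtp and Irf1, but not by Gbp2 or Gbp5, and by 7.67% of all windows. Of the 3 CXCR3 list genes that passed, 0 held the interferon-stimulated element, and Cxcl11 held the gamma-activated site. A match describes the letters and was not tested for binding.

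Type I interferon genes gave no such difference. Of 23 measured antiviral genes none passed in either direction, their differences ran from -0.59 to 0.44, and the median was 0.01. In limma, 3 of the 23 had an unadjusted p below 0.05. Stat2, a factor of the type I response, read 8.03, 7.87 and 7.96 with cobalt and 7.61, 7.42 and 7.73 with nickel, a difference of 0.36 ± 0.13 that did not pass (adjusted p = 0.151). It passed with array weights (0.39, adjusted p = 0.0193). Ifit3, an antiviral protein, was at -0.59 ± 0.24 and did not pass (adjusted p = 0.303). Against tantalum, 7 genes of this list passed as higher with cobalt and 7 with nickel.

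Antigen presentation was higher with cobalt on both of its arms. Of 11 genes of the MHC class II pathway, which shows peptides to helper T cells, 5 were higher with cobalt and none with nickel, with a median of 0.48. RT1-Da, the rat class II alpha chain, read 10.40, 10.33 and 10.68 with cobalt, 9.39, 9.62 and 9.46 with nickel and 7.95, 8.40 and 8.18 with tantalum. Nickel stood above tantalum by 1.31 (adjusted p = 5.65e-05), and cobalt above nickel by a further 0.98 ± 0.23 (adjusted p = 0.00574). RT1-Db1 differed by 0.99 ± 0.20 (adjusted p = 0.000523) and Cd74, the invariant chain, by 1.02 (adjusted p = 0.0141). RT1-Ba differed by 1.11 ± 0.24 (adjusted p = 0.00115), with cobalt replicate 3 at 9.13 and the others at 8.13 and 7.92. The count was 3 without cobalt replicate 1 or nickel replicate 3, and 2 without cobalt replicate 3, when RT1-Ba (0.74, adjusted p = 0.161) and RT1-Da (0.87, adjusted p = 0.0711) no longer passed. Cd74 was lost without any of those 3 arrays (adjusted p = 0.0697 to 0.0995).

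Of 8 genes of the immunoproteasome and MHC class I presentation, 5 were higher with cobalt, with a median of 0.49, and 3 remained without cobalt replicate 3 or without nickel replicate 3. Psmb9, a catalytic subunit that interferon gamma puts in the proteasome, read 8.01, 7.87 and 8.18 with cobalt, 7.08, 7.23 and 6.67 with nickel and 6.20, 6.26 and 6.24 with tantalum. Cobalt was highest and tantalum lowest, without overlap, and cobalt exceeded nickel by 1.02 ± 0.15 (adjusted p = 2.88e-07). Psmb8, a second such subunit, differed by 1.19 ± 0.18 (adjusted p = 1.9e-06). B2m, the light chain of class I molecules, differed by 0.49 ± 0.12 (adjusted p = 0.00891), and its call was lost without cobalt replicate 3 (adjusted p = 0.112) and without nickel replicate 3 (adjusted p = 0.097). Psme2 differed by 0.48 ± 0.13 (adjusted p = 0.029), and not without cobalt replicate 1 or 2 or nickel replicate 1 or 2.

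**Figure D2:**
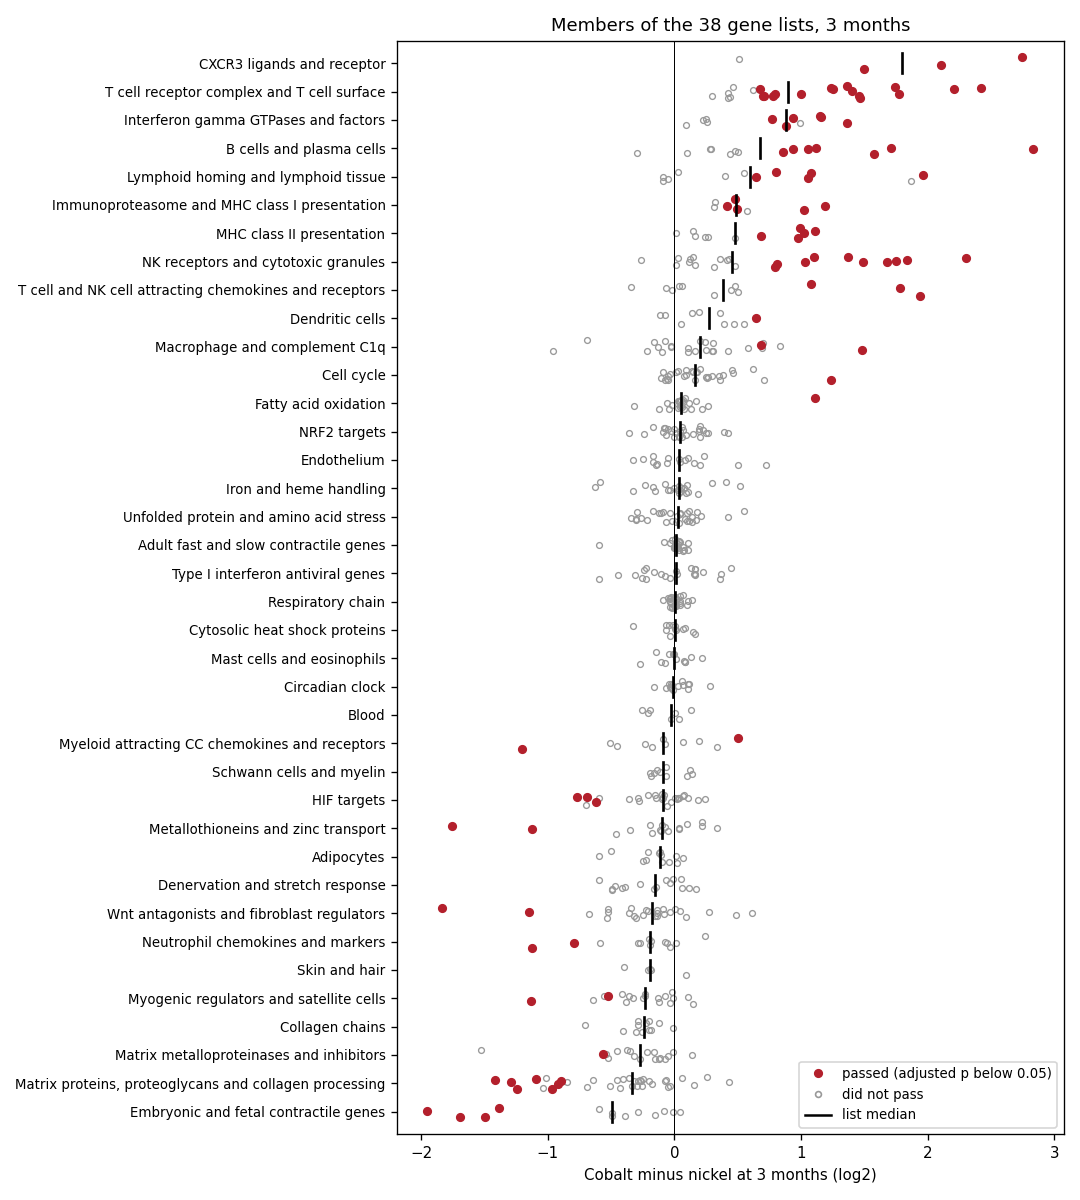
Cobalt minus nickel (log2, horizontal axis) of every measured member of the 38 gene lists at 3 months, 1 row a list, ordered by the list's median. Filled points passed at an adjusted p below 0.05, open points did not, and black bars are list medians. T cell, B cell, CXCR3 and interferon gamma lists lie to the right, with medians from 0.68 to 1.80. The fetal contractile list lies farthest to the left, at -0.49.

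Of 25 measured macrophage genes, 2 were higher with cobalt, none was higher with nickel, and the median difference was 0.20. In limma, 8 of the 25 had an unadjusted p below 0.05. Laptm5, a lysosomal protein of leukocytes in general, read 10.43, 10.28 and 10.47 with cobalt, 8.82, 9.13 and 8.78 with nickel and 7.95, 8.27 and 7.59 with tantalum, a difference of 1.48 ± 0.22 (adjusted p = 7.4e-07). Fcgr3a, an Fc receptor of macrophages and NK cells, differed by 0.68 ± 0.20 (adjusted p = 0.0442) and kept its call when cobalt replicate 2 was left out but with no other array left out. C1qb, a chain of complement C1q made by macrophages, read 8.61, 8.21 and 9.07 with cobalt, 8.48, 8.47 and 8.34 with nickel and 6.43, 6.87 and 6.96 with tantalum. The metals overlapped and both exceeded tantalum, with a difference between them of 0.20 (95% interval -0.28 to 0.69). Cd68, a lysosomal marker, was at 0.58 (95% interval 0.01 to 1.15, adjusted p = 0.549) and Adgre1, the F4/80 antigen, at 0.69 (95% interval 0.14 to 1.24, adjusted p = 0.291). Against tantalum, 17 of the 25 genes passed as higher with cobalt and 14 with nickel, where 4.87% and 2.82% of all probe sets were called higher. Ptprc, which encodes CD45 on all leukocytes, was higher with cobalt by 1.79 ± 0.33 (adjusted p = 0.000103).

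Chemokines of myeloid cells were split. Ccl3, a chemokine of macrophages and activated lymphocytes, read 6.60, 6.94 and 6.99 with cobalt, 7.86, 8.32 and 7.97 with nickel and 6.61, 6.97 and 5.85 with tantalum. Cobalt lay in the range of tantalum or just above it and nickel lay above both (difference -1.20 ± 0.21, adjusted p = 2.67e-05). Ccl12, a ligand of CCR2, went the other way, at 0.50 ± 0.14 (adjusted p = 0.0229), a call that was lost without cobalt replicate 1, cobalt replicate 2 or nickel replicate 1. The Ccl12 call was also lost with a robust prior and intensity trend (adjusted p = 0.0592) and with the 6 arrays alone (adjusted p = 0.183). The other 9 of the 11 genes in the list did not pass. Of 13 neutrophil chemokines and markers, 2 were higher with nickel, where 0.51% of all probe sets were called so. Cxcl2, a neutrophil attractant, differed by -1.12 ± 0.20 (adjusted p = 6.99e-05), and S100a9, a neutrophil granule protein, by -0.80 ± 0.21 (adjusted p = 0.0209). The S100a9 call was lost without cobalt replicate 2 or 3, without nickel replicate 1 or 3 and with a second quantile normalization (adjusted p = 0.0507). S100a8, its partner protein, differed by -0.28 and did not pass (adjusted p = 0.862).

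The metallothioneins Mt1 and Mt2A were the metal-handling genes that separated the metals. Mt1 read 8.46, 8.45 and 8.84 with cobalt, 9.89, 11.16 and 9.98 with nickel and 7.41, 7.23 and 7.10 with tantalum. Both metals exceeded tantalum, by 1.33 with cobalt (adjusted p = 2.69e-05) and by 3.09 with nickel (adjusted p = 3.4e-16), and nickel replicate 2 was the highest array. Cobalt minus nickel was -1.76 ± 0.24, or 3.39-fold (adjusted p = 1.06e-07). Mt2A, the other metallothionein that passed, read 10.23, 10.57 and 10.54 with cobalt, 11.24, 12.13 and 11.34 with nickel and 9.39, 9.64 and 9.84 with tantalum. The order was the same, with a difference of -1.13 ± 0.24 (adjusted p = 0.000975) that did not pass without nickel replicate 2 (-0.84, adjusted p = 0.0746). The other 15 genes of the metallothionein and zinc transport list, the metallothionein Mt3 among them, did not pass. The zinc importer gene Slc39a14 was at -0.35 ± 0.11 (adjusted p = 0.0904). With array weights 4 genes of this list passed, among them Slc39a14 on the nickel side (-0.37) and Slc30a7 on the cobalt side (0.32).

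The promoter bases of Mt1 and Mt2A are shown because metallothioneins are textbook targets of the metal-responsive factor MTF1. Each is the 250 bases before the start site, 5′ to 3′ on the gene's strand, from RefSeq for GRCr8, at chr19:10832976-10833225 (minus strand) for Mt1 and chr19:10838709-10838958 (minus strand) for Mt2A. Capitals mark TGCNCNC with N for any base, a loosened form of the metal response element core, found on either strand. The stricter core, TGCRCNC with R for A or G, is not met by GAGAGCA in Mt1 or GAGGGCA in Mt2A. All counts below are for the loosened letters.
Mt1: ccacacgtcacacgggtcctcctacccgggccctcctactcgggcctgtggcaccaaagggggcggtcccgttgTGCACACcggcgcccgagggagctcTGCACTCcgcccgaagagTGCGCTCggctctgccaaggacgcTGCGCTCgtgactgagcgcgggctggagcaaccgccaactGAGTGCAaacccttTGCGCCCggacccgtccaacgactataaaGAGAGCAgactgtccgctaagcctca
Mt2A: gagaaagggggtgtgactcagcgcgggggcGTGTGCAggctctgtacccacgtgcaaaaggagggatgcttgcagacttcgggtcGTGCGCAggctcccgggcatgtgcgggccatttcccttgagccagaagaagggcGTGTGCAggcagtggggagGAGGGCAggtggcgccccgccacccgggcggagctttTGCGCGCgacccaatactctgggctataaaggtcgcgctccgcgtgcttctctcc
The Mt1 window held 7 matches, 5 of them on the gene's own strand, and the Mt2A window held 5, of which 1 was on its own strand. No match overlapped another motif searched. At least 1 match occurred in 43.4% of all promoter windows and at least 5 matches in 0.37%. The matches were not tested for binding.

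Iron and heme genes, targets of the antioxidant factor NRF2, genes of the unfolded protein response and cytosolic heat shock genes had no member that passed between the metals. These lists measured 24, 29, 30 and 13 genes, with medians of 0.03, 0.05, 0.03 and 0.00, and 3, 1, 3 and 0 of them had an unadjusted p below 0.05 in limma. With 1 array left out at most 1 gene of a list passed, Slc40a1 without cobalt replicate 3 or nickel replicate 3, Creld2 without nickel replicate 1 and Tkt without nickel replicate 2. With array weights, genes that passed included Slc40a1, Lcn2 and Creld2 (adjusted p = 0.0101, 0.0196 and 0.017). Slc40a1, the iron exporter ferroportin, read 6.71, 7.17 and 7.60 with cobalt and 7.80, 8.28 and 7.27 with nickel, and its difference of -0.63 ± 0.21 did not pass (adjusted p = 0.137). Creld2, a protein of the endoplasmic reticulum, came nearest to passing in the unfolded protein list, at 0.55 ± 0.17 (adjusted p = 0.0632).

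HIF targets that passed were higher with nickel. Of 26 measured, 3 were higher with nickel and none with cobalt, with a median of -0.09, where 0.51% of all probe sets were called higher with nickel. Slc2a1, the glucose transporter GLUT1, read 7.92, 8.14 and 8.36 with cobalt, 8.57, 9.12 and 8.81 with nickel and 7.73, 7.67 and 7.12 with tantalum. Cobalt was above tantalum by 0.63 (adjusted p = 0.00216) and nickel by 1.33 (adjusted p = 3.96e-10), and the metals differed by -0.69 ± 0.15 (adjusted p = 0.00164). Ero1a, an oxidase of the endoplasmic reticulum, differed by -0.62 ± 0.14 (adjusted p = 0.00339). Ndrg1, a hypoxia-induced gene, differed by -0.77 ± 0.18 (adjusted p = 0.00588). None of the 3 passed in a fit to the 6 arrays alone (adjusted p = 0.0926 to 0.171) or without nickel replicate 2, when Ndrg1 differed by -0.50 (adjusted p = 0.308), Slc2a1 by -0.55 (adjusted p = 0.0731) and Ero1a by -0.49 (adjusted p = 0.11).

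Contractile genes of developing muscle were the clearest group on the nickel side. Of 13 genes measured in their list, 4 were higher with nickel and none with cobalt, with a median of -0.49. Of all probe sets, 0.51% were called higher with nickel. The list is wider than its name. It also holds Chrna1, Chrnd, Chrng and Ncam1, which count again in the denervation list. Tnni1 and Tnnc1 of slow fibres and Acta2 and Myl9 of smooth muscle are in it too. The 4 that passed are all contractile genes. Tnnt2, the cardiac troponin T that immature skeletal muscle also makes, read 6.20, 6.54 and 6.80 with cobalt, 8.22, 8.31 and 8.86 with nickel and 5.93, 5.80 and 5.70 with tantalum. Nickel stood apart and cobalt lay just above tantalum. The difference was -1.95 ± 0.24, or 3.87-fold (adjusted p = 1.84e-09). Myh3, the embryonic myosin heavy chain, read 8.79, 9.01 and 9.11 with cobalt, 10.89, 10.29 and 10.82 with nickel and 9.05, 8.65 and 8.75 with tantalum. Cobalt and tantalum overlapped, and nickel was higher by -1.70 ± 0.21 as cobalt minus nickel (adjusted p = 4.92e-09). Myl4, an atrial and embryonic myosin light chain, differed by -1.39 ± 0.22 (adjusted p = 2.43e-06). Actc1, the cardiac actin of developing muscle, differed by -1.49 ± 0.35 (adjusted p = 0.00481), a call lost without cobalt replicate 1 (adjusted p = 0.0653) or nickel replicate 1 (adjusted p = 0.0514). Against tantalum, 5 of the 13 passed as higher with nickel and none with cobalt.

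Of 19 myogenic regulators and satellite cell genes, 2 were higher with nickel, against 0.51% of all probe sets. Myf5, a transcription factor of satellite cells and myoblasts, read 5.70, 5.85 and 5.99 with cobalt, 7.25, 6.96 and 6.74 with nickel and 6.10, 5.63 and 6.33 with tantalum. Cobalt overlapped tantalum and nickel lay above both, with a difference of -1.13 ± 0.25 (adjusted p = 0.00148). Itga7, the laminin receptor of muscle, differed by -0.53 ± 0.13 (adjusted p = 0.00756) but not without cobalt replicate 2 (adjusted p = 0.0639) or nickel replicate 2 (adjusted p = 0.0731). With array weights 4 genes passed. Igf2, a growth factor of regenerating muscle, was at -0.64 ± 0.19 (adjusted p = 0.0555), and passed in 5 other settings, the replicate block among them (adjusted p = 0.0181).

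Genes of mature fibres and of energy metabolism did not follow. None of 26 adult contractile genes passed, with a median of 0.01, and none of 26 respiratory chain genes, all of which lay between -0.09 and 0.14. None of either list had an unadjusted p below 0.05 in limma. Myh4, the fastest myosin of rat muscle, differed by 0.07 (95% interval -0.12 to 0.26). None of 16 genes of denervation or stretch passed, and 4 had an unadjusted p below 0.05 in limma. Ncam1, the adhesion molecule that denervated fibres spread over their surface, was at -0.49 ± 0.19 (adjusted p = 0.246). It passed with the replicate block (adjusted p = 0.0488). Of 23 fatty acid oxidation genes only Ucp2 passed, at 1.11 ± 0.21 (adjusted p = 0.000151), a mitochondrial carrier that leukocytes also express. Of 30 cell cycle genes only Mcm3, a subunit of the replicative helicase, passed, at 1.24 ± 0.17 (adjusted p = 1.25e-07). Mki67, the proliferation marker, differed by 0.71 ± 0.22 and did not pass (adjusted p = 0.0866), but did with array weights, with the arrays of 3 months alone and with the 6 arrays alone (adjusted p = 0.0183 to 0.05).

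Matrix genes were higher with nickel in part. Of 35 matrix proteins, proteoglycans and collagen processing genes, 7 were higher with nickel and none with cobalt, with a median of -0.34. Of all probe sets, 0.51% were called higher with nickel. Thbs1, a matrix glycoprotein that activates latent TGF beta, read 8.38, 8.15 and 8.27 with cobalt, 9.13, 9.67 and 9.73 with nickel and 7.98, 7.60 and 7.28 with tantalum. All cobalt arrays lay between tantalum and nickel, and the difference was -1.24 ± 0.26 (adjusted p = 0.000783). Vcan, the proteoglycan versican of provisional matrix, differed by -1.29 ± 0.26 (adjusted p = 0.000437). Plod2, the enzyme that hydroxylates collagen lysines for cross-linking, differed by -1.09 ± 0.22 (adjusted p = 0.000359). Tnn, a tenascin, read 4.70, 3.97 and 4.85 with cobalt and 5.50, 5.82 and 6.46 with nickel, a measured difference of -1.42 ± 0.31, or at least 2.60-fold (adjusted p = 0.00151), that was lost without cobalt replicate 2 (adjusted p = 0.0603) or nickel replicate 3 (adjusted p = 0.061). Lum, Tnc and Thbs2 were the other genes that passed, at -0.97, -0.92 and -0.89 (adjusted p = 0.0114, 0.0256 and 0.0135). The count was 3 without cobalt replicate 2 and 13 with array weights. Lum was also lost without cobalt replicate 1 or nickel replicate 1, Tnc without cobalt replicate 3 or nickel replicate 3, and Thbs2 without nickel replicate 1.

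None of 12 collagen chain genes passed, although all 12 differences lay below 0 and 2 had an unadjusted p below 0.05 in limma. Col4a1, a basement membrane collagen, passed without cobalt replicate 3. Col3a1, a fibrillar collagen of granulation tissue, read 10.19, 9.86 and 10.37 with cobalt, 10.87, 10.77 and 10.89 with nickel and 9.51, 9.88 and 9.86 with tantalum, and its difference was -0.70 ± 0.23 (adjusted p = 0.109). It passed with the 6 arrays alone (adjusted p = 0.0438) and with array weights (adjusted p = 0.0236). Set against tantalum, 17 of the 35 matrix genes and 5 of the 12 collagen genes were higher with nickel, and none of either with cobalt. Of all probe sets, 2.82% were called higher with nickel than with tantalum. Of 26 Wnt antagonists and fibroblast regulators, 2 were higher with nickel than with cobalt, against 0.51% of all probe sets. Sfrp2, a secreted Wnt antagonist of fibroblasts, read 7.83, 6.85 and 7.77 with cobalt, 9.68, 9.28 and 9.00 with nickel and 6.16, 6.39 and 7.45 with tantalum. Cobalt overlapped tantalum, and the difference of -1.84 ± 0.34 passed (adjusted p = 0.000131). Sfrp4, of the same family, was at -1.15 ± 0.34 (adjusted p = 0.0476), and did not pass when cobalt replicate 1 or 2 or nickel replicate 1 or 3 was left out. Its call was also lost with a robust prior and intensity trend (adjusted p = 0.0668). The same held with the arrays of 3 months alone (adjusted p = 0.121) and with the 6 arrays alone (adjusted p = 0.0777). With array weights 5 genes of this list passed, not all on the nickel side. Thy1 was higher with nickel (-0.68, adjusted p = 0.0163) and Tgfb1 higher with cobalt (0.58, adjusted p = 0.0287). Both also passed with the replicate block, in the same directions. Of 19 metalloproteinases and inhibitors only Adamts4, a proteoglycan-cleaving protease, passed, at -0.56 ± 0.15 (adjusted p = 0.0263), and not without cobalt replicate 1 or 3 or nickel replicate 1 or 2.

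Several other genes with the largest differences belong to none of the lists. B3gnt5, an enzyme of glycolipid synthesis, was higher with cobalt by 2.31 ± 0.21 (adjusted p = 8.88e-14), and Gpr174, a lysophosphatidylserine receptor of lymphocytes, by at least 2.21-fold (measured difference 2.27 ± 0.19, adjusted p = 8.93e-16), with all nickel arrays below their control median. Ms4a4c differed by 2.05 ± 0.19 (adjusted p = 2.34e-13). Cd37, a tetraspanin of leukocytes, read 8.61, 8.56 and 8.92 with cobalt and 6.76, 6.81 and 6.69 with nickel, a difference of 1.94 ± 0.23 (adjusted p = 7.28e-10). Dnase1l3, a secreted nuclease of dendritic cells and macrophages, was higher by 1.89 ± 0.22 (adjusted p = 1.11e-09). On the nickel side, Fcrl2 was at -1.25 ± 0.24 (adjusted p = 0.000272). Fndc3c1 was at -1.26 ± 0.21 (adjusted p = 1.24e-05), with cobalt at 4.28, 4.37 and 4.47 below the tantalum arrays (5.40, 4.96 and 4.84) and nickel at 6.39, 5.38 and 5.12. Fndc3c1 did not pass in a fit to the 6 arrays alone (adjusted p = 0.0703).

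Lists for endothelium, Schwann cells, adipocytes, skin, blood, mast cells and eosinophils, and the circadian clock had no member that passed between the metals. Of these, 3 of 17 endothelial genes had an unadjusted p below 0.05 in limma, and none in the other lists. Pecam1, the endothelial adhesion molecule CD31, differed by -0.06, Krt14, a skin keratin, by 0.09, and Hba-a1, a globin, by -0.21. Adipoq, the adipocyte hormone, ranged from 8.30 to 9.49 with cobalt and from 8.82 to 10.45 with nickel, and these groups overlapped. Vcam1, an adhesion molecule of activated endothelium, was at 0.73 ± 0.23 (adjusted p = 0.0896) and passed without nickel replicate 1 and with array weights. Of 10 dendritic cell genes only Ccr7 passed, and not without cobalt replicate 2, nickel replicate 2 or nickel replicate 3. Xcr1 and Dnase1l3, both described above as genes of dendritic cells, lie outside this list and were higher with cobalt.

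Several of the largest rises over tantalum were found with both metals. Of the 10 genes with the largest rise over tantalum in both, 2 differed between cobalt and nickel. Hmox1, the heme-degrading enzyme heme oxygenase 1, read 9.29, 10.04 and 10.04 with cobalt, 8.91, 10.03 and 8.87 with nickel and 6.09, 5.76 and 6.06 with tantalum. The metals overlapped far above tantalum, with rises of 3.82 and 3.30, and the difference between them was 0.52 with a 95% interval of -0.09 to 1.13 (adjusted p = 0.72). For Akr1b8, an aldo-keto reductase, the interval was -0.55 to 0.73, for Ccl7, a monocyte attractant, -0.52 to 0.37, for Ccl2, the main monocyte attractant, -0.30 to 0.68, for Tent5c, a poly(A) polymerase of antibody-secreting cells, -0.54 to 0.39, and for Fcer1g, the signalling chain of Fc receptors, -0.18 to 0.79. These intervals lie within 2-fold either way, as does that of C1qb. Mpeg1, the pore-forming perforin-2 of macrophages, was at 0.73 with an interval of 0.14 to 1.32, and did not pass after adjustment (adjusted p = 0.313). It passed in a fit to the 6 arrays alone (adjusted p = 0.0399).

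The 2 that did differ were Il7r and Slpi. Slpi, a secreted protease inhibitor, read 7.97, 7.96 and 8.36 with cobalt, 6.06, 7.07 and 6.62 with nickel and 4.61, 5.10 and 5.15 with tantalum. The 3 groups did not overlap, and cobalt exceeded nickel by 1.51 ± 0.25 (adjusted p = 1.38e-05). The 5 genes with the largest shared fall were Ccl9, Asb4, Clec5a, Spa17 and Sec31b. None differed between the metals, at 0.07, 0.15, 0.11, 0.21 and 0.05. For Ccl9 the tantalum arrays themselves ranged from 4.86 to 7.69, and the lowest of them lay within the range of the metals.

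**Figure D3:**
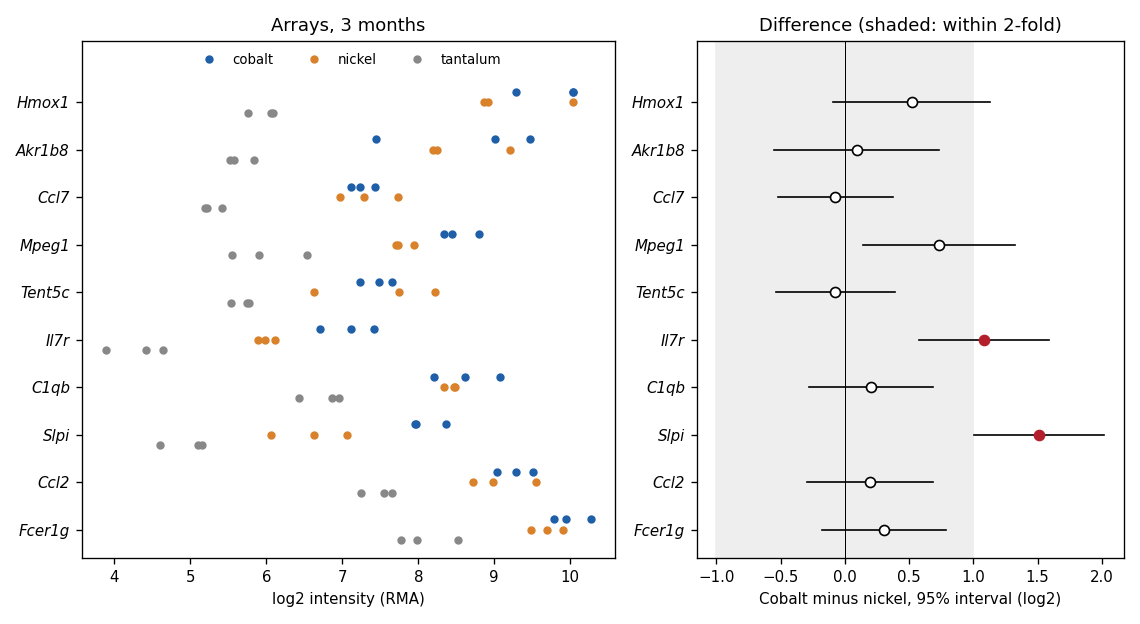
The 10 genes with the largest rise over tantalum in both metals. Left, log2 intensity of the 3 cobalt, 3 nickel and 3 tantalum arrays of 3 months. Right, cobalt minus nickel with its 95% interval (filled where the adjusted p was below 0.05, shading within 2-fold). Il7r (1.08) and Slpi (1.51) passed, and Hmox1 (0.52) did not.

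The contrast between the metals was not the same at other times. At 1 month 111 probe sets passed (0.484%), of which 11 were higher with cobalt (0.0479%) and 100 higher with nickel (0.436%). Mt1 was higher with nickel then too, at 7.39 ± 0.32 with cobalt and 9.34 ± 1.01 with nickel (SD, n = 3 each), a difference of -1.94 (adjusted p = 1.32e-07), and so were Hmox1 (-1.84, adjusted p = 9.82e-05), Ccl3 (-1.58, adjusted p = 4.68e-07), Mt2A (-1.43, adjusted p = 9.51e-05) and Akr1b8 (-1.36, adjusted p = 0.0243). The genes highest with cobalt at 1 month were Klhdc9, Actr3b, Agbl5, Lingo4 and Ccdc184, at 0.79, 0.79, 0.78, 0.59 and 0.59. No T cell, NK cell, B cell or CXCR3 list gene passed at 1 month. The 1 month count moved with the arrays used. It was 34, 54 and 64 without cobalt replicate 1, 2 and 3, and 254, 23 and 10 without nickel replicate 1, 2 and 3.

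At 6 months no probe set passed in limma, and 858 had an unadjusted p below 0.05 (3.74%). The count was also 0 under every alternative analysis run for that month. Mt1 read 7.35 ± 0.06 with cobalt and 7.33 ± 0.17 with nickel, and Hmox1 6.06 ± 0.37 and 6.17 ± 0.19.

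The change in the contrast was tested itself. Between 3 months and 1 month, cobalt minus nickel differed for 449 probe sets (1.96%), 423 upward (1.84%) and 26 downward (0.113%). Between 3 and 6 months it differed for 236 (1.03%), 207 upward (0.902%) and 29 downward (0.126%). Cxcl9 shows the pattern on the cobalt side. It averaged 6.23 ± 0.52, 9.20 ± 0.17 and 5.72 ± 0.34 with cobalt at 1, 3 and 6 months, and 6.50 ± 0.39, 6.46 ± 0.31 and 5.99 ± 0.26 with nickel (SD, n = 3 each). Only the cobalt group of 3 months stood out, and the contrast at 3 months exceeded that at 1 month by 3.01 ± 0.34 (adjusted p = 7.65e-10) and that at 6 months by 3.02 ± 0.34 (adjusted p = 1.89e-09). Tnnt2 shows it on the nickel side, with 6.99 ± 0.75, 8.46 ± 0.35 and 6.16 ± 0.09 with nickel and 6.30 ± 0.30, 6.51 ± 0.30 and 6.04 ± 0.17 with cobalt. Its contrast at 3 months differed by -1.26 ± 0.33 from 1 month (adjusted p = 0.0204) and by -1.83 ± 0.33 from 6 months (adjusted p = 0.000168). Mt1 differed from 6 months (-1.78 ± 0.35, adjusted p = 0.0005) but its contrast at 3 months was not distinguishable from that at 1 month (0.18 ± 0.35, adjusted p = 0.996). Hmox1 moved from the nickel side at 1 month, a change of 2.36 ± 0.43 (adjusted p = 0.000109).

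**Figure D4:**
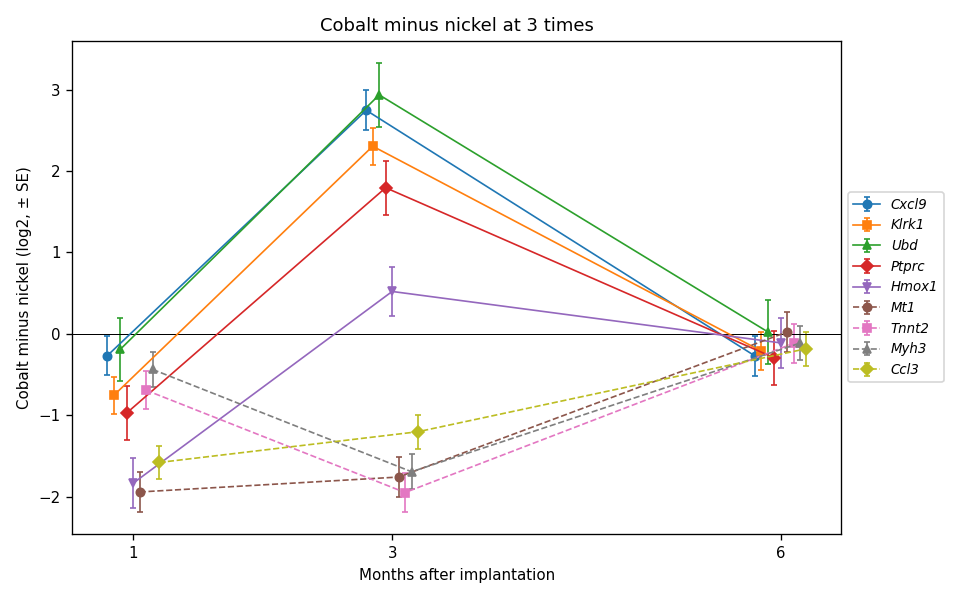
Cobalt minus nickel (log2, vertical axis, bars ± SE of the model) at 1, 3 and 6 months after implantation (horizontal axis) for 9 genes, each offset slightly in time for legibility. Cxcl9, Klrk1, Ubd and Ptprc stand far above 0 at 3 months and not at the other times, Mt1 and Ccl3 lie below 0 at 1 and 3 months, Tnnt2 and Myh3 are lowest at 3 months, and all 9 lie near 0 at 6 months.

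T cell genes were among those whose contrast changed from 1 month. Over all probe sets, 1.84% were called upward between these months. Of the 22 genes of the T cell list, 14 had a higher contrast at 3 months than at 1 month. So did all 4 genes of the CXCR3 list, 9 of 22 NK genes, 6 of 14 B cell genes and 6 of 11 interferon gamma genes. Ptprc is an example. It averaged 6.61 ± 0.62 with cobalt and 7.58 ± 0.72 with nickel at 1 month, and 9.98 ± 0.16 and 8.19 ± 0.31 at 3 months, so that the order of the metals turned. The change of 2.77 ± 0.47 passed (adjusted p = 2.42e-05), while its 1 month difference of -0.97 did not (adjusted p = 0.22).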

How the data were processed

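Rat gastrocnemius RNA was hybridised to Clariom S Rat arrays, 3 per metal and month. The deposited values are log2 intensities per probe set that the authors made by robust multi-array averaging (RMA) with oligo under R 4.0.1, per the submitters' processing notes; whether all arrays were processed in 1 run is not given in the sources used here. Of 22977 probe sets, 23 controls were left out. A gene table for GRCr8 gave 14855 of the others a single symbol by their gene ID, and 8099 stayed without a symbol.

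A linear model with 1 mean for each of the 35 groups was fitted to all 105 arrays in limma 3.58.1 under R 4.3.3 (lmFit, then eBayes). Every group thereby shares 1 estimate of the spread, with 70 residual degrees of freedom and 7.25 from the prior. Tests were two-sided, with Benjamini-Hochberg adjustment over 22954 probe sets, a threshold of 0.05 and no filter on dim probe sets. The comparisons were cobalt minus nickel at 1, 3 and 6 months, the differences between those months, and each metal minus tantalum at 3 months. The script was tested on simulated data. Arrays are pools, so p-values measure the spread between pools and the number of arrays limits the precision. The series holds no nickel arrays at 12 months.

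Genes named were the 15 highest and 15 lowest differences that passed with separate groups, up to 4 members of each of 38 lists by smallest adjusted p and those needed to show a count, the 10 largest shared rises and 5 largest shared falls against tantalum, the 5 highest and lowest for other months and differences between months, and the cell type markers. Cd8a, Cd8b, Ctla4, Foxp3, Prf1, Irf1, Ido1, Cd74, Tnc and Thbs2 fall outside this rule and were chosen after their values were seen. The comparison and the lists were chosen with earlier results of these data known, and some genes in the lists were picked by that earlier work. Replicate numbers were not taken to pair the samples. Alternatives were array weights, a replicate block, a robust prior with an intensity trend, quantile normalization once more, fits without the dimmest 30% or with fewer arrays, and fits without each array in turn; those for the comparisons with tantalum were chosen after seeing the data. Promoter windows were the 250 bases before each RefSeq start site.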

Additional observations from a re-analysis of the deposited data

Results flagged for a closer look

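The contrast between cobalt and nickel differed between months by a test of the difference itself for 449 probe sets (3 months against 1 month) and for 236 (3 months against 6 months), in limma with an adjusted p below 0.05. A change above 0 means that cobalt stood higher relative to nickel at 3 months. Against 1 month the largest changes were those of Cxcl13 (3.29), Ubd (3.13), Klrk1 (3.06), Cxcl9 (3.01) and Ptprc (2.77), and the lowest those of Iqcm (-1.90), Myf5 (-1.43), Myh3 (-1.26), Tnnt2 (-1.26) and Cldn16 (-1.22). Against 6 months the largest were Cr2 (3.19), Cxcl9 (3.02), Ubd (2.91), Klrk1 (2.52) and Klrb1c (2.50), and the lowest Tnnt2 (-1.83), Mt1 (-1.78), Thbs1 (-1.60), Myh3 (-1.58) and Myf5 (-1.42).

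Cxcl13 was among the changes although its difference at 3 months alone did not pass, and nor did those of Iqcm and Cldn16 (-0.90 and -0.59, adjusted p = 0.266 and 0.108). Cldn16 did pass at 3 months with array weights, with the arrays of 3 months alone and with the 6 arrays alone (adjusted p = 0.0365 to 0.0425). Iqcm averaged 5.79 ± 0.18 with cobalt and 4.79 ± 0.19 with nickel at 1 month, and 4.71 ± 0.35 and 5.61 ± 0.25 at 3 months (SD, n = 3 each). No single array was tested as an outlier within its group of 3.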

How the results depend on the processing

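The count of 504 between cobalt and nickel at 3 months lay between 376 and 407 with 1 array left out, at 346 without the dimmest 30% of probe sets and at 372 with the 6 arrays alone. Array weights gave 853, of which 65.8% were higher with cobalt against 76.8% in the main analysis. No named gene reversed under any of the 13 settings. Of the 86 genes that passed among those named by the rule, added or used as cell type markers, 60 passed in every setting that tested them and 26 lost the call at least once. Leaving out the dimmest 30% removes probe sets by construction, and then 6 T cell, 0 NK cell and 1 B cell genes passed. At 1 month the count of 111 lay between 10 and 254 with 1 array left out (34, 54 and 64 without cobalt replicate 1, 2 and 3, and 254, 23 and 10 without nickel replicate 1, 2 and 3) and was 6 with the arrays of that month alone. The 6 month count was 0 in every setting run. With 1 array left out, the change from 1 month covered between 305 and 503 probe sets and the change from 6 months between 186 and 232. The latter was 149 without the dimmest 30%. Against tantalum, array weights gave 1995 calls for cobalt and 1445 for nickel. The cause of these moves was not tested.

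Same-numbered cobalt and nickel arrays did not deviate together at 3 months (correlations of -0.0066, 0.017 and -0.103), so the replicate numbers were not taken to pair the samples. At 1 month each array correlated best with its own number, at 0.068, 0.090 and 0.077, a hint from the data and not from the design. At 6 months the same-number correlations were -0.0037, 0.130 and 0.114, and cobalt replicate 1 correlated best with nickel replicate 3, at 0.114. With the replicate block the count was 572 at 3 months, 168 at 1 month, 0 at 6 months, 513 and 273 for the changes from 1 and 6 months, and 1646 and 1259 for cobalt and nickel against tantalum.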
